A study of Homo sapiens with 4 samples.

Results

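The 9 genes followed here across 4 libraries belong to the ubiquitin system: UBB, which encodes polyubiquitin, UBA1 and UBA6, which activate ubiquitin, STUB1, a chaperone-linked ubiquitin ligase also called CHIP, VCP, the ATPase that pulls ubiquitinated proteins out of complexes and membranes, the shuttle factors UBQLN1, UBQLN2 and UBQLN4, and USP14, a deubiquitinase of the proteasome. They were taken from the table by symbol, each matched 1 row, and they make 9 of the 57820 genes listed. All 9 averaged 1 TPM (transcripts per 1000000) or more over the libraries and were tested, UBA6 through its shGLUD1 values alone. RNA came from 786-0 cells, an established human renal carcinoma line, carrying a non-targeting short hairpin (shNT, 2 libraries) or a hairpin against GLUD1, the mitochondrial glutamate dehydrogenase (shGLUD1, 2 libraries). Cells of both groups had been deprived of amino acids for 12 h, so the comparison is between hairpins under starvation, with no fed cells. The labels give 1 name per hairpin and do not say whether replicates were separate cultures, so the p-values rest on a spread that may be technical.

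Ubiquitin is a small protein that is joined to other proteins to mark them, most often for destruction by the proteasome. It is made as part of longer chains: UBB encodes ubiquitin repeated head to tail, which is cut apart, and RPS27A encodes ubiquitin fused to a ribosomal protein. The free protein is activated by an E1 enzyme, handed to an E2 enzyme and placed on a target with the help of an E3 ligase, after which VCP and the ubiquilins bring the target to the proteasome, where USP14 trims the chain off. In many cell types UBB is induced by heat and other protein-damaging stress, when free ubiquitin runs short.

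The repeat structure of UBB is shown because the largest decrease among the 9 genes was in this gene and because its reads come from near-identical units. In the GENCODE 29 coding sequence of UBB (687 nt, within a single exon), 3 units of 228 nt follow each other on the plus strand of GRCh38, at chr17:16381908-16382135, chr17:16382136-16382363 and chr17:16382364-16382591. The first 45 bases of each unit are given 5′ to 3′, with capitals at the 4 positions where the units are not all alike. Over the whole unit, 14 of 228 positions were not alike.
UBB unit 1: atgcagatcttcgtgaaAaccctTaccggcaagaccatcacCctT
UBB unit 2: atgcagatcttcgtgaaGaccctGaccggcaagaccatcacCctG
UBB unit 3: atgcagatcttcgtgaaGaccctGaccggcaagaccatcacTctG
Units 2 and 3 were 96.5% and 94.7% identical to unit 1. By the same count RPS27A held 1, which was 83.3% identical to the first UBB unit. How reads were divided among such repeats is not given in the sources used here, so the value of a gene that shares them is uncertain. The 5 listed UBB pseudogenes together took 1.11 to 3.17 TPM per library.

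Facts of the whole table set the scale of what follows. In shNT, GLUD1 itself was at 18.09 and 17.43 TPM; the shGLUD1 values were 13.52 TPM for replicate 1 and 19.82 TPM for replicate 2, the latter higher than either control (limma log2 fold change -0.11, adjusted p = 0.631; -0.83 after rescaling, adjusted p = 0.00233); directions below are drawn from the label. The median of the 12524 genes tested was 0.63 log2 units higher in shGLUD1 on TPM, and 56.7% of them passed the test as higher and 7.77% as lower. Changes are therefore also given as rescaled values, after division of each library by its median-ratio factor, which sets the median gene to 0.00. Log2 fold changes are on the log2(TPM + 1) scale, which understates the change of low genes, and p-values are Benjamini-Hochberg adjusted over all genes tested, with 0.05 as the threshold. TPM keep no read totals, so depth is unknown. Of the markers of the line, 6 of 8 had a mean of at least 1 TPM, among them VIM, PAX8, EPAS1 and CA9, whereas PAX2 and CDH6 were at 0.12 TPM or less. Of 6 listed markers of leukocytes, endothelium and hepatocytes, CD68, which carcinoma cells can also express, was above 1 TPM (145.85 to 241.26 TPM), and PTPRC, CD3E, CDH5 and ALB stayed at or below 0.11 TPM and APOA1 at or below 0.61 TPM.

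On TPM, 7 of the 9 genes rose in shGLUD1, beside 56.7% of all genes tested, and 1 fell, beside 7.77% of all genes. UBB fell 2.3-fold by the ratio of mean TPM. UBA1, UBA6, VCP, UBQLN1, UBQLN2, UBQLN4 and USP14 rose by 1.86-fold to 4.34-fold, and STUB1 did not pass. Of the 7, UBA6 averaged under 1 TPM in shNT, so it entered the test through the group where it was high and its call adds no support; the same was true of 1052 of the 7105 genes called higher. The 7 that rose and UBB also had groups that did not overlap, as did 69.9% (higher) and 13.5% (lower) of all genes. The median log2 fold change of the 9 was 1.20. After rescaling 6 were higher, 2 were lower and 1 did not pass (23.2% and 27.9% of all genes were then higher and lower), with a median of 0.48.

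**Figure D1:**
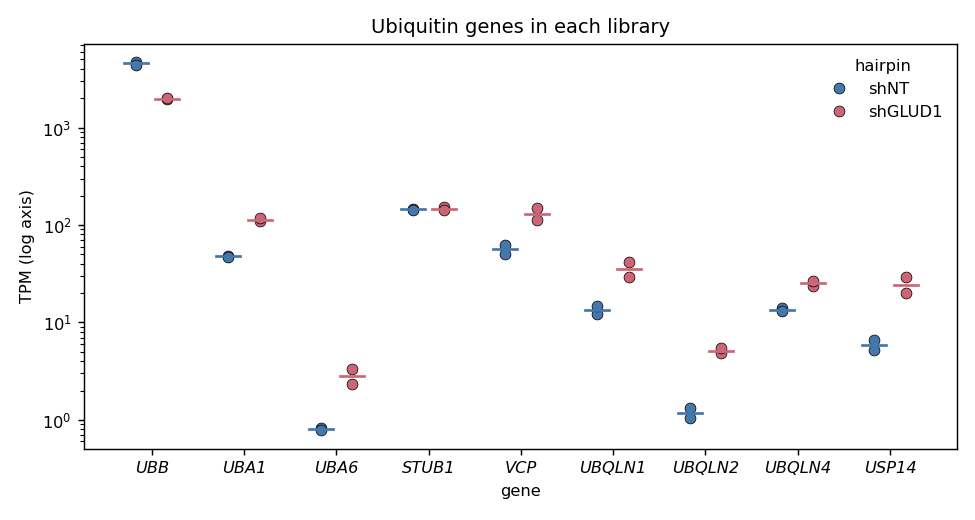
TPM (log axis) of each of the 9 genes in each library; points are libraries, short lines are the means of 2 libraries, blue shNT and red shGLUD1. UBB lies above all others in both groups and is lower in shGLUD1, the STUB1 points overlap, and the other 7 genes have both shGLUD1 points above both shNT points.

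UBB (ENSG00000170315, GRCh38 chr17:16380798-16382745, plus strand) stood at 4667.46 and 4424.76 TPM in shNT and at 1945.25 and 2001.09 TPM in shGLUD1. The groups did not overlap, and the libraries of each group lay close together (4546 ± 172 against 1973 ± 39.5 TPM, SD, n = 2). Its log2 fold change was -1.20 (limma adjusted p = 3.07e-06, SE 0.08), lower than in 98.7% of the genes tested. The rescaled value was -1.97 (limma adjusted p = 0.000131, SE 0.18). In RNA from whole cultures, fewer cells with the transcript and less of it per cell cannot be told apart. Leaving out any 1 library gave values between -1.24 and -1.16. In both groups UBB remained the most abundant of the 9 genes by a wide margin, with a level above that of 99.7% of tested genes in shNT and 99.3% in shGLUD1.

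UBB made up 0.467% and 0.442% of all TPM in shNT and 0.195% and 0.2% in shGLUD1. RPS27A (ENSG00000143947), whose product joins ubiquitin to a protein of the small ribosomal subunit, stood at 2851.34 and 3174.93 TPM in shNT and at 2007.87 and 1840.8 TPM in shGLUD1. The groups did not overlap, and RPS27A fell on TPM (log2 fold change -0.65, limma adjusted p = 0.000172, SE 0.09) and was lower after rescaling too (-1.41). These values count transcripts and say nothing of the amount of ubiquitin protein.

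Both E1 enzymes of ubiquitin were higher. UBA1 (ENSG00000130985, chrX:47190861-47215128, plus strand), the main E1, stood at 48.63 and 47.13 TPM in shNT and at 109.45 and 117.75 TPM in shGLUD1. The groups were far apart for their spread (47.9 ± 1.06 against 114 ± 5.87 TPM), and UBA1 rose by a log2 fold change of 1.23 (limma adjusted p = 1.42e-05, SE 0.11; rescaled 0.48, adjusted p = 0.00769). UBA6 (ENSG00000033178, chr4:67612652-67701179, minus strand), the alternative E1 that also charges the ubiquitin-like modifier FAT10, stood at 0.83 and 0.78 TPM in shNT and at 2.36 and 3.33 TPM in shGLUD1. It was the scarcest of the 9 genes in both groups, and with an shNT mean of 0.805 TPM it reached the filter through shGLUD1 alone, so a difference was built into its selection. Its log2 fold change was 1.08 (limma adjusted p = 0.00361, SE 0.25; rescaled 0.62, adjusted p = 0.0367), but it did not pass under quantile normalization (0.45, limma adjusted p = 0.0997). The ratio of UBA1 to UBA6 TPM was 58.6 and 60.4 in shNT and 46.4 and 35.4 in shGLUD1. For every 1000 TPM of UBB there were 10.4 and 10.7 TPM of UBA1 in shNT and 56.3 and 58.8 in shGLUD1, so UBB and its activating enzyme moved in opposite directions on TPM.

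STUB1 (ENSG00000103266, chr16:680224-682870, plus strand) binds HSP70 and HSP90 and ubiquitinates the misfolded proteins they hold. It stood at 144.84 and 144.03 TPM in shNT and at 151.73 and 142.3 TPM in shGLUD1, and the groups overlapped. Its log2 fold change of 0.02 (SE 0.10, 95% interval -0.19 to 0.24) did not pass on TPM (limma adjusted p = 0.838), while its direction depended on the scale: it was lower after rescaling (-0.73, limma adjusted p = 0.0021), below 0 without passing under quantile normalization (-0.20, limma adjusted p = 0.147) and higher once trends with transcript length and GC content were removed (0.46, limma adjusted p = 0.00307). The median of all genes tested was 0.63 on TPM, 0.00 rescaled, 0.04 under quantile normalization and 0.63 with those trends removed. STUB1 lay below that median on each scale. STUB1 is the most GC-rich of the 9 (65.8% in its GENCODE 29 transcript).

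VCP (ENSG00000165280, chr9:35056064-35073249, minus strand) stood at 62.04 and 50.63 TPM in shNT and at 113.48 and 148.43 TPM in shGLUD1. Both shGLUD1 libraries were above both controls, with a wider spread than in UBA1 (131 ± 24.7 TPM in shGLUD1). VCP rose by a log2 fold change of 1.20 (limma adjusted p = 7.35e-05, SE 0.15; rescaled 0.44, adjusted p = 0.0252).

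The ubiquilins bind the proteasome at one end and ubiquitin at the other. UBQLN1 (ENSG00000135018, chr9:83659963-83708203, minus strand) stood at 12.21 and 14.61 TPM in shNT and at 29.4 and 41.44 TPM in shGLUD1. It rose without overlap (1.32, limma adjusted p = 0.000156, SE 0.18; rescaled 0.60, adjusted p = 0.0113). UBQLN2 (ENSG00000188021, chrX:56563639-56567868, plus strand), in which mutations cause an inherited motor neuron disease, stood at 1.05 and 1.31 TPM in shNT and at 4.8 and 5.45 TPM in shGLUD1. It had the highest ratio of mean TPM of the 9 genes (4.34) and rose by 1.49 on the log2(TPM + 1) scale (limma adjusted p = 0.000373, SE 0.24; rescaled 0.96, adjusted p = 0.00419). UBQLN4 (ENSG00000160803, chr1:156035301-156053794, minus strand) stood at 14.06 and 12.99 TPM in shNT and at 23.55 and 26.74 TPM in shGLUD1. It rose on TPM (0.85, limma adjusted p = 0.000898, SE 0.16), near the median of all genes, and did not pass after rescaling (0.12, limma adjusted p = 0.443) or quantile normalization (0.22, limma adjusted p = 0.183). UBQLN1 and UBQLN4 overlapped in shNT, while UBQLN1 was above UBQLN4 in both shGLUD1 libraries. The ratio of UBQLN1 to UBQLN2 TPM was 11.6 and 11.2 in shNT and 6.12 and 7.6 in shGLUD1.

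USP14 (ENSG00000101557, chr18:158383-214629, plus strand), which removes ubiquitin from proteins docked at the proteasome, stood at 5.17 and 6.66 TPM in shNT and at 19.97 and 29.02 TPM in shGLUD1. The groups did not overlap. Its log2 fold change of 1.87 was the largest increase of the 9 on the log2(TPM + 1) scale (limma adjusted p = 4.9e-05, SE 0.21). It was above that of 97.0% of genes tested, and the rescaled value was 1.17 (limma adjusted p = 0.000987, SE 0.18). With a pseudocount of 0.1 TPM, USP14 was at 2.02 and UBQLN2 at 2.03, so this rank depends on the pseudocount.

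**Figure D2:**
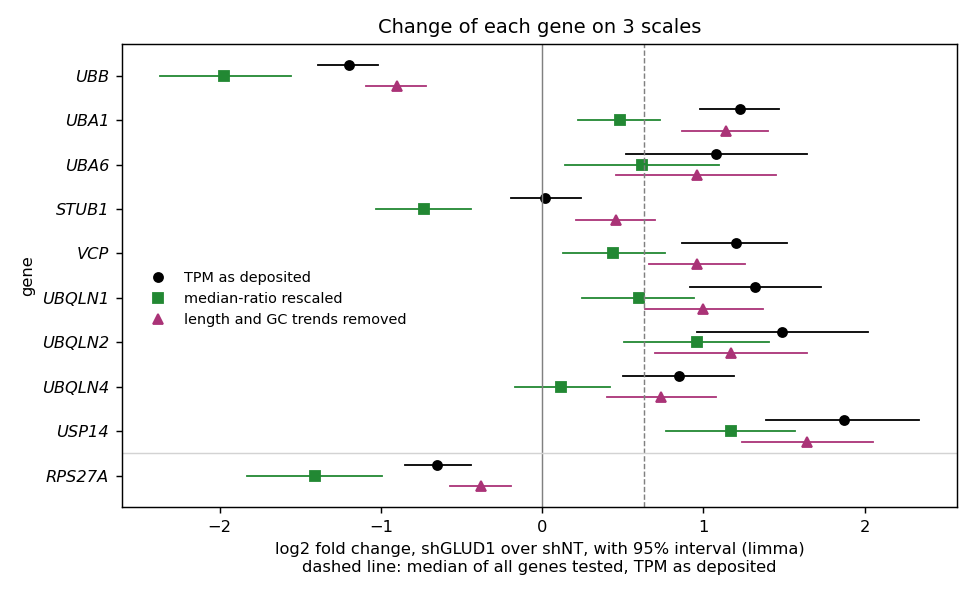
Log2 fold change of shGLUD1 over shNT with its 95% interval from limma, for the 9 genes and, below the grey line, RPS27A, on TPM (circles), after median-ratio rescaling (squares) and with length and GC trends removed (triangles). UBB and RPS27A lie below 0 on the 3 scales, USP14 lies highest on each, and STUB1 changes side.

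The order of the 9 levels, in TPM and thus per transcript length, was UBB, STUB1, VCP, UBA1, UBQLN4, UBQLN1, USP14, UBQLN2 and UBA6 in shNT, and neighbours overlapped there for UBQLN4 and UBQLN1 alone. In shGLUD1 it was UBB, STUB1, VCP, UBA1, UBQLN1, UBQLN4, USP14, UBQLN2 and UBA6. STUB1 overlapped VCP there, VCP overlapped UBA1, and UBQLN4 overlapped USP14. STUB1 was at 144 ± 0.573 TPM against 56.3 ± 8.07 TPM for VCP in shNT, and at 147 ± 6.67 TPM against 131 ± 24.7 TPM in shGLUD1.

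Transcript length moved with these results, and GC content did so less clearly. UBB was at 51.5% GC, below UBA1 (57%), UBQLN4 (56.1%) and VCP (51.9%), which rose. The other genes that rose were at 35.7% to 44.4%. The UBB and STUB1 transcripts used for length measured 1225 and 1560 nt, and those of the 7 genes that rose measured 3559 to 9564 nt, against a median of 2905 nt over the genes tested. Across 12258 genes, which share the same 4 libraries, the log2 fold change had a Spearman rho of 0.39 with length and -0.20 with GC content. With both trends removed from each library, UBB was at -0.90 (limma adjusted p = 2.7e-06, SE 0.09), USP14 at 1.64, UBQLN2 at 1.17 and UBA1 at 1.14. By that measure 8 of the 9 were higher and 1 lower, beside 61.1% and 5.69% of all genes. STUB1, among the 8, was at 0.46, below the median of all genes, which was still 0.63.

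The promoter windows of the genes were read because 7 of them rose on TPM, as did 56.7% of all genes tested. RefSeq windows on GRCh38.p14 were matched by symbol for 7 of the 9 genes (9 windows), STUB1 and UBQLN4 not being among them, and the 250 bases upstream of each start were searched on both strands. Neither phase of the heat shock element core (GAANNTTC, in 5.78% of 35116 windows, and TTCNNGAA, in 6.62%) nor the ATF4 element TGATGCAA (0.772%) was found in these windows. The antioxidant response element TGACNNNGC, the type of site read by NRF2 and its relative NRF1, was in 5 of the 9 windows, those of UBB, UBQLN1, UBQLN2, USP14 and VCP, and in 10.9% of all windows. The matches are printed 5′ to 3′ on the gene's strand with the element in capitals, read on the opposite strand in USP14 and in the second match of UBQLN2.
UBB, chr17:16381299-16381331, plus strand: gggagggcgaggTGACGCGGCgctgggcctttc
UBQLN1, chr9:83708014-83708046, minus strand: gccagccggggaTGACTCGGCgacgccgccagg
UBQLN2, chrX:56563469-56563501, plus strand: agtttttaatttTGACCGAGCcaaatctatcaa
UBQLN2, chrX:56563502-56563534, plus strand: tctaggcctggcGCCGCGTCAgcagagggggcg
USP14, chr18:158519-158551, plus strand: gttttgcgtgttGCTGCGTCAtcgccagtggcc
VCP, chr9:35072794-35072826, minus strand: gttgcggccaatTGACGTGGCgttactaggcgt
The element stood before a RefSeq start of UBB, which fell, as well as of UBQLN1, UBQLN2, USP14 and VCP, which rose. The matches of UBB, UBQLN1, USP14 and VCP lie inside the gene as GENCODE 29 annotates it, downstream of its outermost start, and those of UBQLN2 lie before the annotated gene. The other UBB window did not hold the element. UBA1, whose windows held no match, rose too. A match describes letters and shows no binding.

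The rest of the pathway was read from 8 lists. Their counts stand against 56.7% of all genes higher and 7.77% lower on TPM, and 23.2% higher and 27.9% lower after rescaling. Besides UBA1 and UBA6, 8 E1 enzymes of ubiquitin and related modifiers were tested. On TPM 8 rose, with a median of 1.16, and after rescaling 4 were higher and 0 lower. With UBA1 and UBA6 the list holds 10, of which 10 rose, with a median of 1.15, UBA6 entering through its shGLUD1 values alone. Of these 10, 0 were lower on either scale, also at an unadjusted p under 0.05 (limma). ATG7, which activates the autophagy modifiers, was at 11.08 and 13.92 TPM in shNT and at 46.87 and 52.51 TPM in shGLUD1 (1.91, limma adjusted p = 7.7e-06; rescaled 1.19), and UBA2, a subunit of the SUMO E1, rose by 1.49 (rescaled 0.76). Of 34 tested E2 enzymes, 26 rose (beside 56.7% of all genes), 0 fell (beside 7.77%) and 8 did not pass, with a median of 0.81 (limma; 0 were lower at an unadjusted p under 0.05 too). Of the 26, 2 averaged under 1 TPM in shNT. Rescaled, 8 were higher and 7 lower (beside 23.2% and 27.9%). UBE2G1, which works with cullin ligases, and UBE2E3 rose by 1.73 and 1.66 (rescaled 1.03 and 0.91).

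Among 27 tested cofactors and partners of VCP, 11 rose (beside 56.7% of all genes), 4 fell (beside 7.77%) and 12 did not pass, with a median of 0.31 against 0.63 over all genes. Rescaled, 6 were higher and 14 lower (beside 23.2% and 27.9%). ZFAND2A, an arsenite-inducible zinc finger protein that binds the proteasome, fell from 936.52 and 784.9 TPM to 41.92 and 36.84 TPM (-4.41, limma adjusted p = 2.99e-09, SE 0.12; rescaled -5.16), and VIMP, the selenoprotein that anchors VCP to the endoplasmic reticulum, fell by 0.66 on the log2 scale (rescaled -1.42). UBXN4, another anchor at that membrane, rose from 2.57 and 2.26 TPM to 7.39 and 11.12 TPM (1.56, rescaled 0.94). SPRTN, a DNA-protein crosslink protease, was at 0.87 and 0.64 TPM in shNT and at 2.8 and 6.82 TPM in shGLUD1 (1.64, rescaled 1.15). It entered the test through its shGLUD1 values alone, as did 2 of the 11 in all, and did not pass without a filter on low values (limma adjusted p = 0.0555).

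Chaperones and co-chaperones that work with STUB1 had the lowest median of the 8 lists, at -0.20. Of 17 tested, 8 fell, beside 7.77% of all genes, 4 rose and 5 did not pass, and 13 were lower and 3 higher after rescaling. HSPA1B and HSPA1A, the stress-inducible HSP70 genes, had log2 fold changes of -3.69 and -4.04 (rescaled -4.45 and -4.55); the 2 are near-identical copies, so the split between them is uncertain. HSPA4, an exchange factor of the HSP70 system, rose from 9.95 and 13.48 TPM to 27.1 and 35.32 TPM (1.34, rescaled 0.62). BAG5, a co-chaperone of HSP70, was at 0.83 and 0.71 TPM in shNT and at 3.9 and 6.67 TPM in shGLUD1 (1.79, rescaled 1.30). BAG5 entered the test through its shGLUD1 values alone, and HSPA1A, with an shGLUD1 mean of 0.66 TPM, through its shNT values alone.

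Of 5 tested shuttle factors besides the ubiquilins, 3 rose and 1 fell (beside 56.7% and 7.77% of all genes) and 1 did not pass, and 2 were higher and 2 lower after rescaling. RAD23B, which carries ubiquitinated proteins to the proteasome as the ubiquilins do, was at 12.16 and 15.22 TPM in shNT and at 53.22 and 80.02 TPM in shGLUD1 (2.18, limma adjusted p = 1.22e-05; rescaled 1.45). NUB1 rose by 1.20 (rescaled 0.48). SQSTM1, the autophagy receptor p62, fell from 1373.77 and 1399.44 TPM to 835.61 and 933.59 TPM (-0.65, limma adjusted p = 0.000141; rescaled -1.41).

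Besides USP14, 7 ubiquitin receptors and enzymes bound to the proteasome were tested, of which 4 rose and 1 fell (beside 56.7% and 7.77% of all genes) and 2 did not pass. Rescaled, 2 were higher and 3 lower. UCHL5, the other proteasomal cysteine deubiquitinase, stood at 2.56 and 3.5 TPM in shNT and at 8.79 and 10.62 TPM in shGLUD1 (1.41, limma adjusted p = 0.000388; rescaled 0.78). ADRM1, the subunit on which UCHL5 docks, moved the other way, from 529.78 and 524.82 TPM to 422.59 and 401.84 TPM (-0.35, limma adjusted p = 0.00457; rescaled -1.12), though its value was 0.08 with length and GC trends removed, and it did not pass without a variance trend (limma adjusted p = 0.0778). With length and GC trends removed, the median of all genes was still 0.63, so ADRM1 lay below the median gene there too. UBE3C, a ligase that extends chains at the proteasome, rose by 1.33 (rescaled 0.64).

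Of 19 other deubiquitinases 15 rose and 1 fell (beside 56.7% and 7.77% of all genes) and 3 did not pass, with a median of 0.84. Of the 15, 2 averaged under 1 TPM in shNT. Rescaled, 7 were higher and 4 lower (beside 23.2% and 27.9%). USP10 and USP7 rose by 1.89 and 1.76 (rescaled 1.23 and 1.12). OTUB1 fell by 0.29 on the log2 scale (limma adjusted p = 0.0232) and was lower after rescaling (-1.05, adjusted p = 0.000282) and quantile normalization (-0.54, adjusted p = 0.00348), but it did not pass without shNT replicate 1 (adjusted p = 0.204), shNT replicate 2 (0.0895) or shGLUD1 replicate 1 (0.0511), without a variance trend (0.129), or with length and GC trends removed (0.542). Of 13 quality-control E3 ligases besides STUB1, 6 rose and 0 fell (beside 56.7% and 7.77% of all genes) and 7 did not pass (limma; 9 higher and 1 lower at an unadjusted p under 0.05). After rescaling 3 were higher and 6 lower (beside 23.2% and 27.9%). With length and GC trends removed 9 were higher and 2 lower (beside 61.1% and 5.69% of all genes). On that scale the median of all genes was still 0.63, and OTUB1 was at -0.08. HUWE1, a very large ligase of unassembled proteins, was at 5.03 and 3.84 TPM in shNT and at 23.11 and 27.11 TPM in shGLUD1 (2.27, limma adjusted p = 1.04e-05; rescaled 1.59), and NEDD4L rose by 1.36 (rescaled 0.63).

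**Figure D3:**
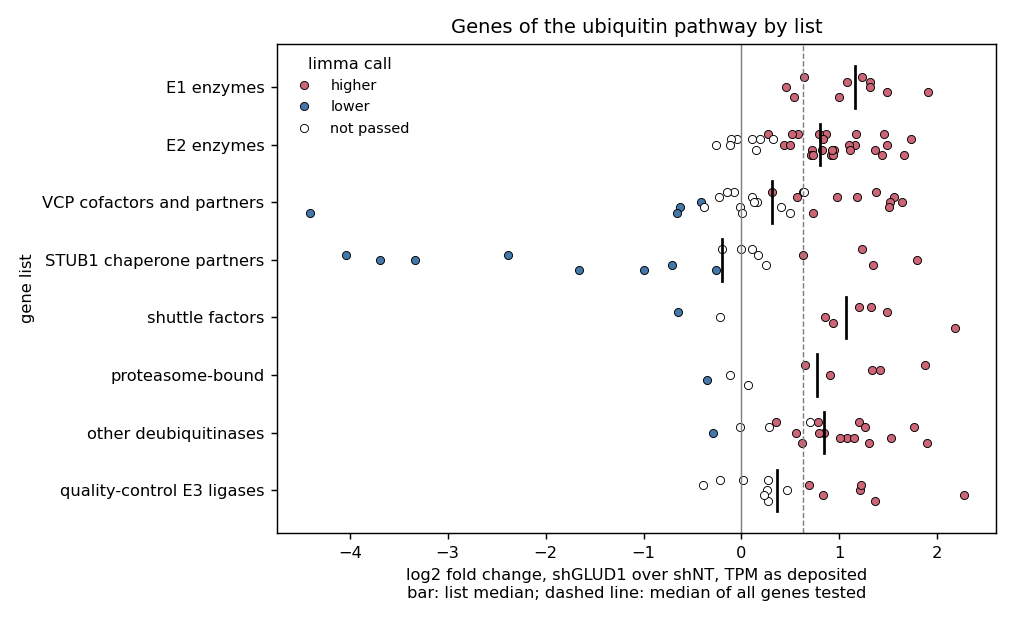
Log2 fold change of shGLUD1 over shNT on TPM for each tested gene of the 8 lists (members included), coloured by the limma call; black bars are list medians and the dashed line is the median of all genes tested, 0.63. The chaperone partners of STUB1 have a median below 0 (-0.20), and the medians of the other 7 lists lie between 0.31 and 1.15.

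Among 7302 other genes averaging 5 TPM or more, the 3 with the pattern nearest to UBB by Euclidean distance of centred log2(TPM + 1) values over the 4 libraries were DEDD2 (0.041), COG3 (0.063) and C17orf76-AS1 (0.087), and no other lay within 0.1. DEDD2, a death-effector-domain gene, stood at 160.84 and 153.71 TPM in shNT and at 65.13 and 69.68 TPM in shGLUD1. C17orf76-AS1, a non-coding transcript, stood at 1558.4 and 1481.12 TPM in shNT and at 661.53 and 719.52 TPM in shGLUD1, and it lies on the same chromosome and strand as UBB (chr17:16438822-16478678). For USP14 the nearest were MTPN (0.040), INTS8 (0.050) and TRIM69 (0.055), with 13 genes within 0.1. With 4 points per gene such likeness is a description.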

How the data were processed

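The 9 genes, the 8 pathway lists and the alternatives were chosen with earlier results of these data known. The authors deposited 1 table of TPM with 57820 genes and 4 libraries, made from 1 µg of total RNA each per the labels' protocols; every column summed to 1000000 within rounding, and values were written to 2 decimals. Bowtie 0.12.2 and 2 builds, hg38 and mm8, appear in the submitters' processing notes without a role; quantifier, annotation and filters were not given in the sources used here. Values of genes averaging 1 TPM or more (12524) were fitted as log2(TPM + 1) against group alone with limma 3.58.1 in R 4.3.3 (functions lmFit and eBayes, variance trend on), two-sided, with Benjamini-Hochberg adjustment over all genes tested. Limma shares the estimate of spread between genes, with a prior worth 8.8 degrees of freedom (median). Rescaling used median-ratio factors (log2 -0.38 and -0.37 for shNT, 0.29 and 0.50 for shGLUD1). Coordinates, lengths (longest coding transcript) and coding sequences came from GENCODE 29 on GRCh38 (52338 identifiers matched, 97.9% of tested genes with a length), and promoters from RefSeq. The fit was also run on simulated data in which few or no genes changed, in random directions. That run does not cover a shift of most genes such as the one seen here. Some genes and 1 list of the design are not reported here. Genes named are the 9, GLUD1, RPS27A, and up to 2 increases and 2 decreases per list by size among those that passed, with the 3 genes nearest in pattern to UBB and to USP14. Tables and figures used Python 3.11.15, pandas 2.3.3, numpy 2.4.6 and matplotlib 3.10.9.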

Additional observations from a re-analysis of the deposited data

How the results depend on the processing

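Of the 9 genes, 7 were higher and 1 was lower with each library left out in turn, without a variance trend, with a pseudocount of 0.1 TPM, without a filter on low values, among protein-coding genes and with the replicate number as a block. With 1 library left out, the remaining library of that group is assumed to vary like the other group, in these counts and in the adjusted p-values given for OTUB1. The replicate block called 7395 genes higher and 1061 lower, and it changed no call of a named gene. Same-numbered libraries did not deviate together (correlation 0.039 across genes), which shows no pairing but, with 2 libraries per group, cannot exclude it. A mean of at least 5 TPM left out UBA6 and UBQLN2 (5 higher and 1 lower). Of the 9 genes, median-ratio rescaling gave 6 higher and 2 lower, and quantile normalization gave 5 higher, 1 lower and 3 that did not pass. Over all genes, rescaling gave 2910 higher and 3491 lower, against 7105 and 973 on TPM. Quantile normalization gave 2938 higher and 2764 lower over all genes. A mean of at least 5 TPM gave 4676 higher, since fewer genes were tested. With each library left out, 6240 to 8167 genes were called, 5530 to 7229 higher and 673 to 938 lower. STUB1 changed sign under rescaling (-0.73), quantile normalization (-0.20) and without shGLUD1 replicate 1 (-0.02, leave-one-out range -0.02 to 0.07). GLUD1 changed sign without that library (0.15, range -0.37 to 0.15). ADRM1 did so with length and GC trends removed (0.08, where the median of all genes was 0.63). Of 16 counts of higher or lower genes per list, 13 moved by over 1.5 times under rescaling and 11 under quantile normalization. Beyond the scaling step itself, the cause was not tested. With 2 libraries per group and no read totals, no counting error can be given for the low genes UBA6 and UBQLN2.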
